A study of Canis lupus familiaris with 2 samples.

Results

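The miRNAs described here are miR-210, miR-26a, miR-26b, miR-103 and miR-107, all linked to the response of cells to low oxygen. They were selected by name, as every dog probe called cfa-miR-210, cfa-miR-26a, cfa-miR-26b, cfa-miR-103 or cfa-miR-107 with or without an arm suffix, which gave 5 of the 291 miRNA probes on the array, and each was matched to the authors' value table by its miRBase identifier. The probes carried no arm suffix. The samples were SNP cells, from a mammary gland tumour of a dog, grown either as an adherent monolayer or as spheroids. The spheroids were raised from non-adherent cells picked out of the medium, without added basement membrane or matrix material, so culture form and the selection of floating cells cannot be told apart. Both cultures were harvested with trypsin, and each gave 1 total RNA sample (RNA integrity 9.8 for the monolayer and 9.7 for the spheroids) that was labelled with Cy5 and hybridised to 1 array. No oxygen level or treatment is given for either culture, and array and culture form cannot be told apart.

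miR-210 is, in human and mouse cells, the best known target of hypoxia-inducible factor (HIF) among miRNAs: HIF binds its promoter when oxygen is low, and the miRNA then represses mRNAs of mitochondrial respiration such as that of the iron-sulphur scaffold ISCU. miR-26a and miR-26b share a seed, the stretch near the 5′ end that pairs with target mRNAs, and repress EZH2, the methyltransferase of Polycomb repressive complex 2, among other growth-related mRNAs. miR-103 and miR-107 also share a seed with each other, overlap in sequence with the seed of the miR-15/16 family, and in human cells repress DICER1, the enzyme that cuts miRNA precursors. In human cells members of both pairs have been described among the miRNAs that change under hypoxia.

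In the RefSeq gene table of assembly UU_Cfam_GSD_1.0, each member matched at least 1 miRNA gene, 7 genes in all. The miR-26 genes each overlapped a gene of the CTDSP family of small phosphatases: MIR26B overlapped CTDSP1, and the 2 genes of miR-26a overlapped CTDSP2 and CTDSPL. The miR-103 and miR-107 genes overlapped pantothenate kinase genes, with the 2 genes of miR-103 in PANK2 and PANK3 and that of miR-107 in PANK1. MIR210 overlapped a long non-coding RNA gene. No other miRNA gene lay within 10 kb of any of them. The 1 probe for miR-26a and the 1 probe for miR-103 cannot separate the products of their 2 genes.

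Each array carried 3200 spots, of which 1408 were blank, and no spot had a warning mark. A miRNA was called detected when its spot exceeded the mean of the blank spots by more than 2 of their SDs, a limit of 89.8 intensity units for the monolayer and 79.8 for the spheroids, and 178 miRNAs were detected on both. The 6 epithelial markers listed for this comparison, the miR-200 family and miR-205, were detected on both arrays. Of the markers of blood, endothelium, fibroblasts and smooth muscle, striated muscle, liver and nerve, miR-486, miR-199a and miR-138 had no probe of that name. miR-126, miR-142, miR-144, miR-451, miR-143, miR-145, miR-1, miR-208a and miR-124 were detected on neither array. The brightest of the others reached an intensity of 110 (miR-214, monolayer). Over the probes found by name, the summed deposited values of those lists lay between 0 and 26.1 in the monolayer and between 0 and 20.7 in the spheroids. The epithelial list summed to 900.4 and 1359. Probes named miR-199, miR-138a and miR-138b were left out of these values. miR-199 reached 181 in the monolayer and 159 in the spheroids (deposited 58.3 and 41.1). miR-138a reached 120 and 145 (deposited 21.6 and 33.9), and miR-138b 96.4 and 106. The epithelial markers did not move as a set: miR-141, miR-200c and miR-429 were higher in the spheroids by log2 differences of 0.64, 0.51 and 0.75 on the normalized scale defined below. The dim miR-200a and miR-200b were near 0, at 0.01 and 0.08. By contrast, miR-205 was lower by a difference of -1.90, the lowest of the 178, with deposited values of 170.0 and 27.6. The part of this shift in the results on the hypoxia-linked miRNAs was not tested.

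All 5 hypoxia-linked miRNAs were detected on both arrays, as were 178 of all 291, and all 5 were brighter on the spheroid array. After background correction without scaling, all 5 were again higher in the spheroids, as were 57.3% of the 178. The share over all 178 for raw intensities was not computed. On the normalized scale, miR-26b, miR-26a and miR-210 were 2.71-fold, 2.45-fold and 2.26-fold higher in the spheroids, and miR-107 and miR-103 were 1.09-fold and 1.06-fold higher. Some of these calls depended on the processing: miR-210 was under 2-fold in 2 other settings (log2 differences of 0.94 and 0.90), and miR-26b was at -0.31 in 1. In 1 setting miR-103 and miR-107 reached 2-fold (1.002 and 1.03). Because each culture was represented by 1 array, the differences are given by size, without replicates or a test. In RNA from a whole culture, more of a miRNA per cell and more cells that hold it cannot be told apart. The values in scanner units that follow are spot intensities before any background correction or scaling. Distances from the blank spots are given as the number of blank SDs above the blank mean of the same array.

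miR-210 had a spot intensity of 93.4 on the monolayer array, 3.52 blank SDs above the blank mean. On the spheroid array it stood at 181, or 67.2 blank SDs, a raw ratio of 1.94. The monolayer spot was thus close to background and the spheroid spot was well clear of it. Among the 1408 blank spots of the monolayer array, 17 (1.21%) were as bright as the miR-210 spot or brighter, but none of the 44 blank spots in its own block was, the brightest of these reaching 91.3. On the spheroid array no blank spot reached it.

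The miR-26a spot measured 253 in the monolayer and 740.1 in the spheroids, at 71.0 and 428 blank SDs. The miR-26b spot measured 178 and 539, at 39.2 and 298 blank SDs. Both miR-26 probes were therefore bright on both arrays, with no blank spot at their level on either, and each spot was about 3 times as bright in the spheroids, with raw ratios of 2.92 for miR-26a and 3.03 for miR-26b.

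The miR-103 spot measured 439 in the monolayer and 646 in the spheroids, at 149 and 368 blank SDs. The miR-107 spot measured 372 and 547, at 121 and 304 blank SDs. Their raw ratios were 1.47 each, well below those of the miR-26 pair. The plot of spot intensities shows the steep lines of the miR-26 pair beside the shallow, parallel lines of miR-103 and miR-107, and the miR-210 line starting near the blank spots.

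**Figure D1:**
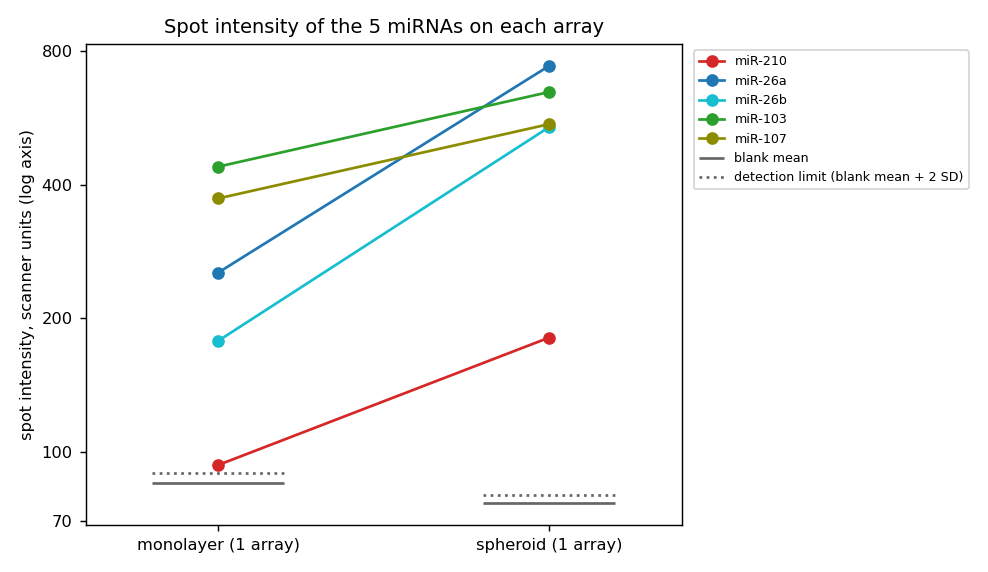
Spot intensity (scanner units, log axis) of the 5 miRNAs on the monolayer array and the spheroid array, 1 spot each, joined by lines, with each array's blank mean (solid grey) and detection limit (dotted grey). miR-210 goes from 93.4, close to the monolayer limit of 89.8, to 181, miR-26a from 253 to 740.1, and miR-103 from 439 to 646.

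For the comparison, intensities were corrected for background by normexp, which added an offset of 50, and their log2 values were quantile normalized across all 291 miRNAs. Each difference is therefore given relative to the rest of the array. On this scale miR-26b had a monolayer level of 7.34 and a spheroid level of 8.78, a log2 difference of 1.44 (2.71-fold). The level of miR-26a was 7.99 and 9.29, a log2 difference of 1.30 (2.45-fold). The level of miR-210 was 6.07 and 7.24, a log2 difference of 1.18 (2.26-fold). These were the 2nd, 3rd and 4th highest differences among the 178 miRNAs detected on both arrays.

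Over those 178 miRNAs, 4 (2.25%) were higher in the spheroids by a log2 difference of 1 or more and 5 (2.81%) were lower by as much. The 3 members thus made up 3 of the 4 higher miRNAs, the other being miR-218. The members were proposed with these results already known, so the count is a description of the arrays. The count also depended on the filter on dim probes. miR-146a, not detected in the monolayer but 60.7 blank SDs above the blank mean in the spheroids, differed by 1.38. Without the filter 5 of 291 miRNAs (1.72%) were higher by as much, and miR-26a and miR-210 ranked 4th and 5th. With detection at 5 blank SDs miR-210 dropped out, and 3 of 127 (2.36%) were higher. The median log2 difference of the 5 members was 1.18, against -0.05 over all 178.

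miR-107 differed by 0.13 on the log2 scale, with levels of 8.66 and 8.79. miR-103 differed by 0.09, with levels of 8.92 and 9.01. Both lay within the bulk of the array, at ranks 59 and 68 of 178. A value above 0 was common, since 44.9% of the 178 miRNAs had one.

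The error of a single spot was taken from 5 control probes printed in 8 copies, whose log2 differences had a pooled SD of 0.07. The differences of miR-26b, miR-26a and miR-210 amounted to 20.8, 18.7 and 16.96 such SDs. Those of miR-107 and miR-103 amounted to 1.88 and 1.29, so neither passed 2 SDs, a mark that 32.6% of the 178 miRNAs passed on the higher side. The control spots were bright, at 246 or more on both arrays, against 93.4 for miR-210 in the monolayer. Blank spots had a larger SD of 0.08. Both SDs were taken before quantile normalization. Spot error leaves out the variation between cultures, RNA extractions and arrays.

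**Figure D2:**
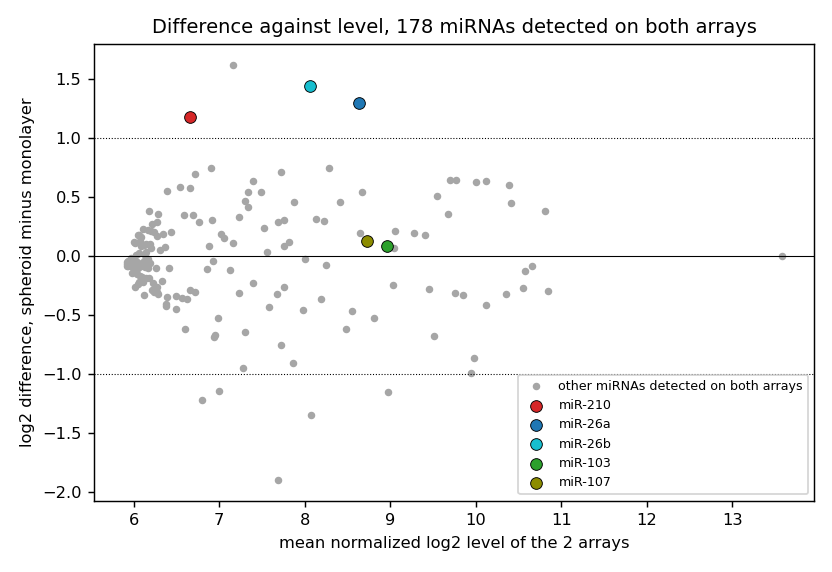
Log2 difference (spheroid minus monolayer) against the mean normalized log2 level of the 2 arrays, for the 178 miRNAs detected on both, with dotted lines at 1 and -1. miR-26b (1.44), miR-26a (1.30) and miR-210 (1.18) lie above the upper dotted line, whereas miR-107 (0.13) and miR-103 (0.09) lie near 0 among the other miRNAs.

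The authors' deposited values have the blank mean subtracted and no offset, so that dim spots differ more on that scale. There miR-210 went from 5.09 (monolayer) to 51.9 (spheroids), a 10.2-fold difference and the largest upward one among the 178. The deposited values of miR-26b were 56.6 and 230.0, or 4.06-fold at rank 3. Those of miR-26a were 102.7 and 330.1, or 3.22-fold at rank 6. On this scale 12.9% of the miRNAs were higher by 2-fold or more, so the mark was passed more often than after normalization.

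miR-103 stood at 216 and 283 (1.31-fold) and miR-107 at 175 and 234 (1.34-fold) in the deposited values. The fold of miR-210 rests on its dim monolayer spot: with that spot 1 blank SD brighter the deposited difference would be 7.94-fold, and with it 1 blank SD dimmer 14.2-fold. The same shifts would move miR-26b only between 3.96-fold and 4.17-fold and miR-26a between 3.17-fold and 3.26-fold. If detection required 5 blank SDs, miR-210 would count as not detected in the monolayer and would be at least 2.13-fold higher in the spheroids on the normalized scale, or at least 6.85-fold in deposited units, against the dimmest miRNA still detected.

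Within the pairs, the normalized difference of miR-26b exceeded that of miR-26a by 0.14, and that of miR-107 exceeded that of miR-103 by 0.04. The first gap is about the size of 2 control-spot SDs (0.14) and the second lies below 1 SD. In the deposited values the gaps were 0.34 and 0.02. The mean difference of the miR-26 pair exceeded that of the pair of miR-103 and miR-107 by 1.26 in the normalized values and by 1.45 in the deposited values. Whether the probes of a pair read each other's miRNA was not tested.

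A second intensity is deposited for every spot under a background heading, although it follows the spot itself (correlation of the logs 0.973 and 0.971 over all spots of each array). Its median share of the spot intensity over the 178 miRNAs was 0.773 on each array. For miR-103 this share was 0.754 on both arrays, and for miR-107 it was 0.690 and 0.553. For miR-210 it was 0.786 and 0.555, and for miR-26a 0.633 and 0.343, the latter undercut by only 8 of the 178 miRNAs on that array.

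miR-26b went the other way from its partner: the share went from 0.544 (monolayer) to 0.847 (spheroids). Its second intensity was 96.6 and 457, a 4.72-fold difference that was larger than the 3.03-fold difference of the spot. The spot exceeded its second intensity by 81.1 units in the monolayer and by 82.2 in the spheroids, which are nearly equal. With the second intensity subtracted and the arrays quantile normalized, the log2 difference of miR-26b was -0.31, while miR-26a was at 1.94, miR-210 at 1.83, miR-107 at 0.60 and miR-103 at 0.07. What this column measures is not given in the sources used here, and its part in the miR-26b result was not tested.

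**Figure D3:**
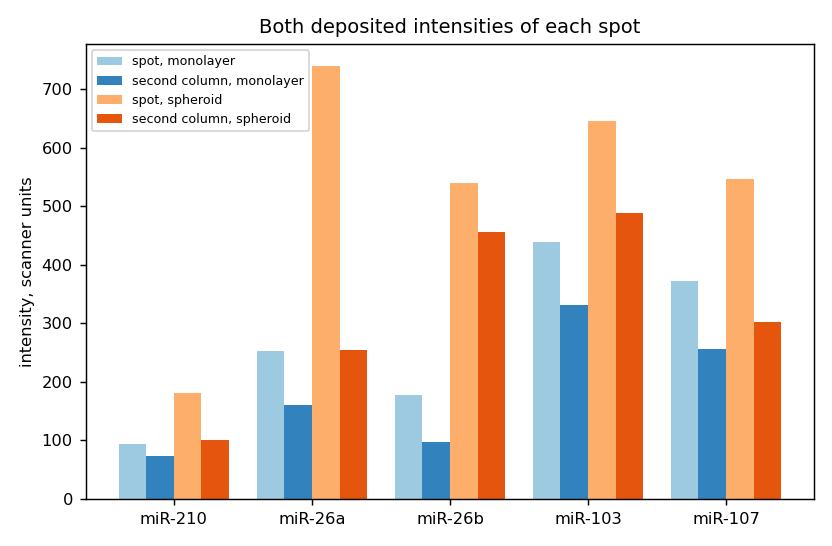
Spot intensity (light bars) and second deposited intensity (dark bars) of each of the 5 miRNAs on the monolayer array (blue) and the spheroid array (orange), in scanner units. For miR-26b the second intensity goes from 96.6 to 457, nearly up to the spheroid spot of 539, whereas for miR-26a it goes from 160.3 to 254 under a spot of 740.1.

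The blank spots in the same block as each probe were also compared. The blank means of the 5 blocks that hold the members ranged from 82.0 to 86.8 for the monolayer and from 75.3 to 76.9 for the spheroids, close to the array means of 85.1 and 76.7. With the blank mean of the same block subtracted in place of that of the whole array, miR-210 was higher by 3.46 on the log2 scale (3.35 in the deposited values), miR-26b by 1.98, miR-26a by 1.67, miR-107 by 0.42 and miR-103 by 0.40.

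The direction of miR-210, miR-26a, miR-103 and miR-107 was upward in all 13 other settings that gave a value for them (12 for miR-210), 2 of which changed only the filter on dim probes, and that of miR-26b in 12 of 13, the exception being the subtraction of the second intensity. miR-26a was 2-fold or more higher in all of them. The settings were not independent of each other. Median scaling, both 75th percentile scalings and no scaling differed only by a constant per array. Spike control scaling differed from the deposited values in the same way. miR-210 fell short of 2-fold without background correction (0.94) and with the arrays scaled to the 75th percentile of the detected miRNAs (0.90). miR-103 and miR-107 reached 2-fold only with the arrays scaled to the spike controls (1.002 and 1.03), a setting that placed the median of all 178 miRNAs at 0.61. Measured from the median of all miRNAs in each setting, miR-210 lay 0.98 to 3.48 above it, miR-26a 1.25 to 1.90, miR-107 0.14 to 0.57 and miR-103 0.04 to 0.51, and miR-26b between -0.34 and 2.02.

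**Figure D4:**
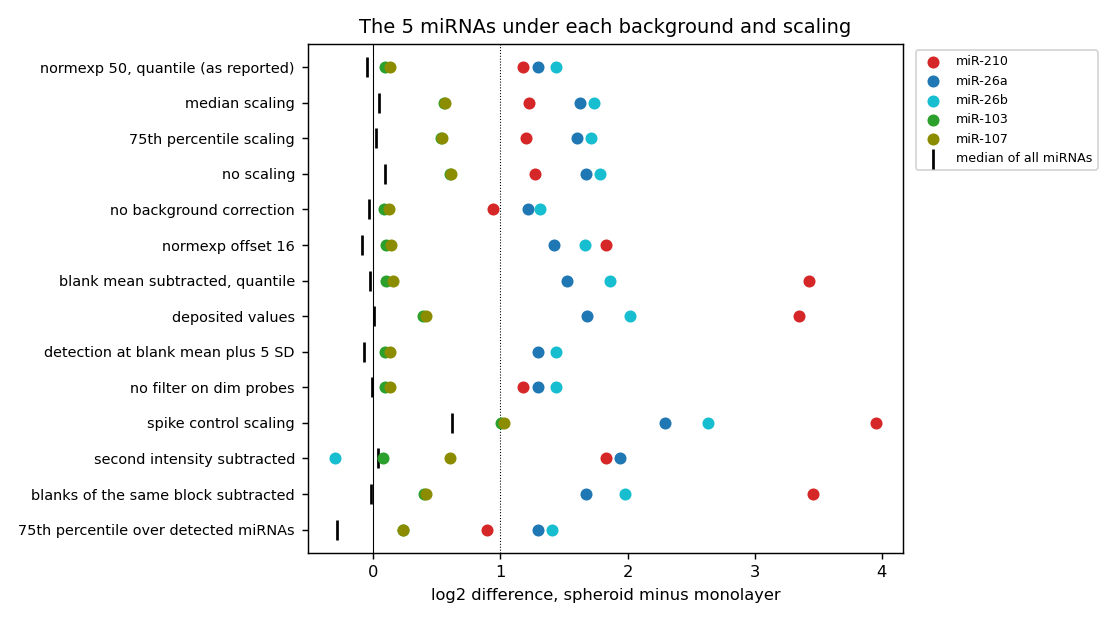
Log2 difference (spheroid minus monolayer) of the 5 miRNAs under the reported processing and 13 other background and scaling settings, with the median of all miRNAs in each (black bar). miR-26a stays right of the dotted 2-fold line in every row, miR-210 ranges from 0.90 to 3.96, and miR-26b drops to -0.31 where the second intensity is subtracted.

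Neighbours were sought by nearest levels on both arrays together, only among the 178 miRNAs detected on both. Those closest to miR-210 were miR-148a, miR-342 and miR-338, with log2 differences of 0.69, 0.58 and 0.59. Those closest to miR-26a were miR-30c (0.55), miR-429 (0.75) and miR-30a (0.46), and those closest to miR-26b were miR-429, miR-130a (0.71) and miR-15a (0.46). All of these neighbours were higher in the spheroids, by less than the member they resembled. Both points follow largely from the rule, since neighbours are close in level on both arrays. The rule left out miR-146a, which was not detected in the monolayer. Its normalized levels of 5.80 and 7.18 lay close to those of miR-210 (6.07 and 7.24), and its log2 difference was larger, at 1.38. Among the 178 miRNAs, miR-26b, miR-26a and miR-210 ranked 2nd, 3rd and 4th, and only miR-218 stood above them. miR-103 lay nearest to miR-30d (0.07), miR-30b (0.21) and miR-20b (-0.24), and miR-107 to let-7g (0.20), miR-30c and miR-30d. This likeness rests on 2 arrays and describes brightness.

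Lists of related miRNAs were set beside the members, by counts only. The seed group of miR-15 and miR-107, whose other members share an overlapping seed with miR-103 and miR-107 and repress cyclin mRNAs, had 7 of 8 listed miRNAs on the array and 6 detected on both arrays. None of the 6 was 2-fold apart, against 2.25% (higher) and 2.81% (lower) of all 178 miRNAs. Above 0 were 4 of the 6 (44.9% of all 178), and their median was 0.45 against -0.05. miR-15b (0.63) and miR-195 (0.54) differed most. The dim miR-503 stood at -0.23 on the normalized scale and at -1.72 in the deposited values. With the second intensity subtracted the median of the group was -0.13 (0.04 over all miRNAs), with 1 of the 6 2-fold lower (14.8% of all). Scaled to the spike controls, 4 of the 6 were 2-fold higher (38.8% of all 178) and 1 was 2-fold lower (3.37% of all), with a median of 1.39 against 0.61 over all.

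Of 14 other miRNAs described as hypoxia-responsive in human cancer cells, 13 were on the array and all 13 were detected on both arrays. On the normalized scale none was 2-fold apart in either direction, with 5 above 0, 8 below and a median of -0.09. The highest was miR-195 (0.54), also a member of the seed group, and the lowest was miR-106a (-0.41), of a cluster related to miR-17-92. The split depended on scaling. Above 0 were 11 of 13 with median scaling (53.4% of all 178), with a median of 0.38 against 0.04 over all. Without scaling 12 were above 0 (57.3% of all), with a median of 0.43 against 0.09. The deposited values had 10 above 0 (50.6% of all), with a median of 0.18 against 0.0046. There 1 of the 13 was 2-fold higher (12.9% of all): miR-181b, dim in the monolayer, at 1.96. Spike control scaling put all 13 above 0 (70.8% of all) and 4 of them 2-fold higher (38.8% of all), with a median of 0.79 against 0.61. With the second intensity subtracted, 2 of 12 were 2-fold lower (14.8% of 169 miRNAs) and none was 2-fold higher. The median was then 0.19 against 0.04.

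Among miRNAs that act on HIF1A mRNA or on the turnover of its protein, 6 of 7 listed had a probe of that name. Of these, 5 were detected on both arrays. All 5 were below 0 on the normalized scale, as were 54.5% of all 178, with none 2-fold lower and a median of -0.31. However, 3 of the 5 were above 0 with no scaling (57.3% of all) or with median scaling (53.4% of all). After scaling to the spike controls 4 were above 0 (70.8% of all). With the second intensity subtracted, 3 of the 5 were 2-fold lower (14.8% of all) and the median was -1.27, against 0.04 over all. miR-155, an inflammation-linked miRNA, had the lowest value of the list (-0.66) and went from 54.2 to 24.0 in deposited units. miR-18a followed at -0.36, and stood at 0.42 with the spike controls. miR-424, which represses the ubiquitin ligase scaffold CUL2 and which belongs to the seed group too, was detected on neither array. The listed miR-199a had no probe of that name. A probe named miR-199 was detected on both arrays but not counted. It stood at -0.31 on the normalized scale, 0.10 with the spike controls and 0.79 with the second intensity subtracted.

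**Figure D5:**
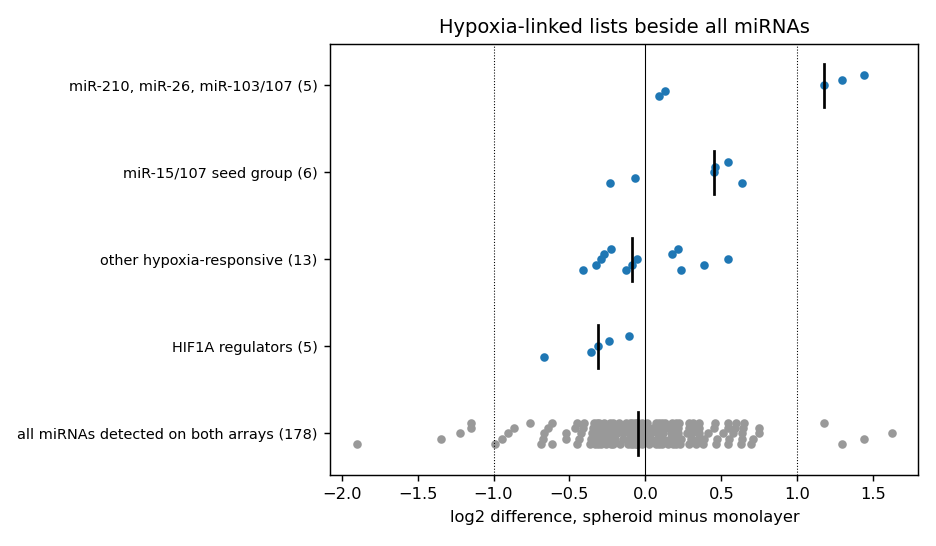
Log2 difference (spheroid minus monolayer, normalized scale) of the miRNAs detected on both arrays in each list, with the median as a black bar and dotted lines at 1 and -1; numbers in brackets count miRNAs, and vertical scatter within a row has no meaning. The medians are 1.18 for the 5 miRNAs described here, 0.45 for the seed group of miR-15 and miR-107, -0.09 for the other hypoxia-responsive miRNAs, -0.31 for the HIF1A regulators and -0.05 for all 178.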

How the data were processed

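Levels were measured on 2 single-colour arrays, 1 per culture. The authors' deposited scanner tables give each spot's median intensity at 635 nm, with straight-line fits between scans at 3 gains, per the file headers, neither background corrected nor scaled. The deposited value table holds intensities on a linear scale. Set against the scanner values, they equalled the spot minus the blank mean (1268 of 1408 blanks, the extreme 5% at each end left out) times 0.611 for the monolayer and 0.498 for the spheroids, within 0.0265%, with undetected miRNAs left empty. The sources used here name no scanner, scanner software or genome build. limma 3.58.1 in R 4.3.3 gave the main values (normexp over all spots, offset 50, log2, quantile over the 291 miRNAs). The offset pulls differences of dim spots towards 0. Python 3.11.15, pandas 2.3.3, numpy 2.4.6 and matplotlib 3.10.9 did the rest. Part of the background and scaling settings was run on simulated data. Only bright simulated spots were scored, so dim spots such as miR-210 in the monolayer were not covered. Control spots for the spot error had to exceed the detection limit on both arrays. No p-value was computed. Alternatives to the background treatment, the scaling and the filter on dim probes were run. With the blank mean or the second intensity subtracted, quantile normalization covered the miRNAs with a value on both arrays. The named miRNAs were the 5 members, the 3 others nearest in level to each, and the 2 largest differences of each of the 3 lists of related miRNAs. Neighbours and list differences were taken among miRNAs detected on both arrays. The cell type markers, miR-199, miR-138a, miR-138b, miR-146a, miR-503, miR-424, miR-181b and miR-218 were named outside that rule, after their values were seen. The members and lists were chosen with earlier results of these data known.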

Additional observations from a re-analysis of the deposited data

How the results depend on the processing

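Values below are log2 differences (spheroid minus monolayer) in the order miR-210, miR-26a, miR-26b, miR-103, miR-107, followed by the median of the 5 and the miRNAs of the whole array 2-fold or more higher and lower (1.18, 1.30, 1.44, 0.09, 0.13, 1.18, and 4 and 5 as reported). Median scaling gave 1.22, 1.62, 1.74, 0.56, 0.56, 1.22, and 10 and 3. The 75th percentile over all miRNAs gave 1.20, 1.60, 1.71, 0.53, 0.54, 1.20, and 9 and 3. No scaling gave 1.27, 1.67, 1.78, 0.60, 0.61, 1.27, and 13 and 2. No background correction gave 0.94, 1.22, 1.31, 0.09, 0.12, 0.94, and 3 and 4. An offset of 16 gave 1.83, 1.42, 1.66, 0.10, 0.14, 1.42, and 6 and 8. The blank mean subtracted before quantile normalization gave 3.43, 1.52, 1.86, 0.10, 0.15, 1.52, and 22 and 27. The deposited values gave 3.35, 1.68, 2.02, 0.39, 0.42, 1.68, and 23 and 25. Detection at 5 blank SDs left 127 miRNAs without miR-210, a median of 0.71 over 4 members, and 3 and 5. Dropping the filter on dim probes changed no member and gave 5 and 5. The other 4 settings were chosen after seeing the data. Spike control scaling gave 3.96, 2.29, 2.63, 1.002, 1.03, 2.29, with all 5 members 2-fold higher, and 69 and 6. Subtracting the second intensity gave 1.83, 1.94, -0.31, 0.07, 0.60, 0.60, with 2 members 2-fold higher, and 21 and 25 among 169 miRNAs. Blank spots of the same block gave 3.46, 1.67, 1.98, 0.40, 0.42, 1.67, and 25 and 26. The 75th percentile over the detected miRNAs gave 0.90, 1.30, 1.41, 0.23, 0.23, 0.90, and 3 and 6, with the array median at -0.28. The cause of these shifts was not tested. No paired analysis was possible because each culture has 1 array, and no replicate could be left out for the same reason. Signal over background limits miR-210 in the monolayer most.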
